A study of Mus musculus with 18 samples.

Results

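Fibroblasts of the mouse urinary bladder that carried Car3 and Cxcl14 transcripts were examined in 7 single-cell RNA libraries. Fibroblasts were cell barcodes with at least 500 UMIs (unique molecular identifiers, 1 for each captured transcript), at least 1% of UMIs from Dcn, Col1a1, Col1a2, Col3a1 and Lum, and under 0.5% from Krt7, Krt8, Krt18 and Krt19. A fibroblast entered the Car3/Cxcl14 class when Car3 and Cxcl14 together had at least 3 UMIs, and at least 2 times the UMIs of Pi16 plus Mfap5 and of Inmt plus Sult1e1 plus Penk. This rule took 6858 of 17779 fibroblasts, out of 35289 barcodes. The remaining 10921 fibroblasts were the comparison, and among them 4917 were Pi16/Mfap5 cells and 2355 Inmt/Sult1e1/Penk cells by the same rule with the roles of the gene sets exchanged.

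The series is an atlas of the bladder of C57BL/6 mice with no genetic change or treatment named in the labels, and every library was made from pooled animals. The whole-bladder cell libraries were labelled 22 months with 3 males, 3 months with 3 males, 12 months with 2 females and 2 males (2 libraries), and 24 months with 2 females and 2 males. A library of the detrusor, the muscle layer of the bladder wall, was labelled with 3 females of 14 months, and a detrusor-enriched whole-bladder library with 2 females and 2 males of 14 months. Values for the 7 libraries are given below in the order 22-month, 3-month, first 12-month, second 12-month, 24-month, detrusor-only and detrusor-enriched. A library of nuclei (12 months, 2 females and 2 males), 4 tissue sections of 22- and 14-month males labelled with 4 animals each, and 6 bulk RNA libraries of 12-month females labelled with 3 animals each (3 of intact tissue, 3 of dissociated bladder) were used as further samples. The rule was applied to the nuclei as well, and not to the sections or the bulk libraries.

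Fibroblasts build the collagenous matrix of the bladder wall and fall into kinds that occupy different layers, and those beneath the urothelium exchange secreted signals with that epithelium. Hedgehog ligand made by the urothelium is received through Ptch1 on stromal cells, which answer with Gli1 and Hhip and with Wnt and Bmp ligands. Car3 encodes a cytosolic carbonic anhydrase of low activity, Cxcl14 a secreted chemokine, and Rbp4 the carrier of retinol. Pi16 marks fibroblasts of the adventitia in many organs.

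The library labelled detrusor only stood apart from the others. It held 42 Car3/Cxcl14 cells, of which 34 (81.0%, 95% interval 65.9% to 91.4%) had at least 3 UMIs of Msln, Upk3b, Lrrn4 and Muc16, markers of the mesothelium that lines the outer bladder surface. That share was 0.125% to 4.76% among the class in the other 6 libraries. The summed mesothelium list stood at 5587 CPM (UMIs scaled to a common total) in those 42 cells against 239 CPM in the other fibroblasts of the library, and at 15.7 to 580.2 CPM in the class elsewhere. The urothelium list was also higher there, at 2543 against 125 CPM, with 5 of 14 genes detected and Upk1a, Upk2 and Upk3a at 0. A list of 12 general fibroblast genes reached 3141 CPM in the 42 cells and 6833 to 13973 CPM in the class in the other libraries. These sums are over all 42 cells, and those with fewer mesothelial UMIs were not examined apart. Because of these values, the counts of genes called and many single genes are given with all 7 libraries and without this one. Some single genes are given with all 7 alone, which includes these 42 cells.

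Sex-linked transcripts went against 3 labels. In the library labelled with 3 females, 4 Y-linked genes had 4153 UMIs in 1960 of 6400 barcodes, beside Xist in 2618. In the detrusor-enriched library, labelled with both sexes, Xist had 4 UMIs in 6163 barcodes and Y-linked genes were found in 3473. The nuclei library, labelled with both sexes, had 6 Xist UMIs in 3472 barcodes. Xist in the 5 whole-bladder libraries followed the labels. Libraries held 13281422 to 55374101 UMIs, and the class contributed 305043 to 14862072 of them per library. At most 64 barcodes were shared between 2 libraries, the 22-month and 3-month ones, which shared 0 with any other library. In the 22-month and 3-month libraries Car3 was also found at 397 and 302 CPM in urothelial cells (78.9% and 58.6% of those cells had a UMI), against 1.07 to 37.4 CPM in urothelial cells of 4 other cell libraries. Whether these UMIs came from the urothelial cells themselves was not tested. The same 2 libraries, called the male libraries below after their labels, had the most Car3 in fibroblasts outside the class. The detrusor-enriched library, also with almost no Xist, did not share that level. Fibroblasts of the male libraries held fewer UMIs as well, and whether sex or depth had part in either difference was not tested.

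The class made up between 1.16% and 63.3% of fibroblasts. Its share was 43.2% (95% exact binomial interval 42.0% to 44.5%, 2746 of 6350 fibroblasts) at 22 months (males) and 63.3% (61.7% to 64.8%, 2396 of 3785) at 3 months (males). In the whole-bladder libraries labelled as mixed it was 44.1% (39.3% to 48.9%, 189 of 429) and 29.8% (22.4% to 38.1%, 42 of 141) at 12 months, and 46.4% (42.8% to 50%, 353 of 761) at 24 months. The detrusor-only library had 1.16% (0.840% to 1.57%, 42 of 3607) and the detrusor-enriched library 40.3% (38.4% to 42.2%, 1090 of 2706). The highest share was thus in the 3-month library and the lowest in the detrusor-only one. The intervals of the 2 libraries of 12 months did not overlap, but they did when a lead of 4 times was asked (35.0% to 44.4% and 21.1% to 36.6%) or when fibroblasts had to hold 2% of UMIs in Dcn, Col1a1, Col1a2, Col3a1 and Lum (43.2% to 53.8% and 28.1% to 48.8%). Intervals cover counting error only, and most groups are 1 library, so no test was made.

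**Figure D1:**
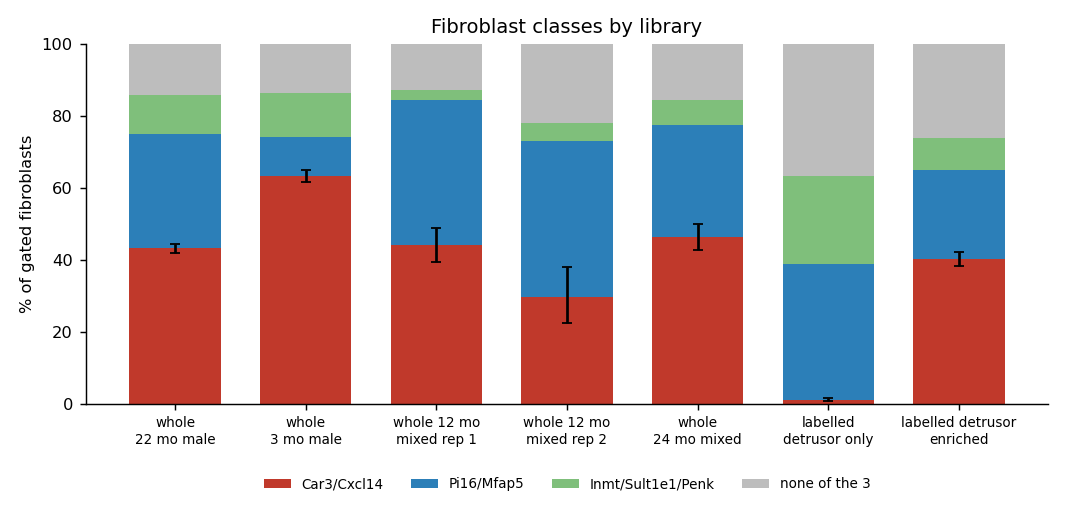
Stacked bars give the percentage of gated fibroblasts in each class (y axis) for the 7 cell libraries (x axis), with the 95% binomial interval of the Car3/Cxcl14 share as an error bar. The red Car3/Cxcl14 part spans 29.8% to 63.3% in 6 libraries and is 1.16% in the library labelled detrusor only.

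Fibroblasts in the male libraries held fewer UMIs, with class medians of 3217 and 1816 against 5824 to 6398 in the other whole-bladder libraries and 13691 in the detrusor-enriched one. When each cell was thinned to 2000 UMIs, which also left out 2220 and 2631 shallower fibroblasts of the male libraries, the shares became 54.8% and 81.4% there. The shares of the other 5 were then 43.5%, 27.9%, 45.0%, 0.470% and 43.0%. Some cells lay near the limits of the rule. Between 0 and 11 members per library had exactly 3 UMIs of Car3 plus Cxcl14, and 0 to 12 fibroblasts had 2. A lead over the next gene set of 2 to under 3 times was found in 1 to 106 members per library, and 3 to 189 further fibroblasts with at least 3 UMIs led by under 2 times. In the detrusor-only library 4 of the 42 members had 3 UMIs, 5 led by 2 to under 3 times, and 21 further fibroblasts led by under 2 times. Both genes were detected in 88.1% to 98.4% of members outside the detrusor-only library and in 38.1% within it.

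Car3 and Cxcl14 chose the cells, so their levels are a description. Car3 stood at 14885, 20751, 4116, 2499, 5271, 514 and 4598 CPM in the class and at 599, 613, 35.1, 27.3, 41.9, 3.05 and 41.5 CPM in the other fibroblasts. For Cxcl14 the class had 9544, 15142, 5779.8, 4824, 5920.4, 669 and 6089.6 CPM and the other fibroblasts 559, 721, 76.4, 230.0, 113, 42.4 and 232 CPM. The class was highest for both genes in the 2 male libraries, where the other fibroblasts were also highest. Pi16, used to keep cells out, was at 49.1 to 519 CPM in the class against 1894 to 6146 CPM in the rest.

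Rbp4 was a marker that the rule had not used. It stood at 2750.1, 1660.5, 1155, 1080.1, 1445, 26.9 and 1085 CPM in the class and at 172, 102, 18.3, 52.8, 34.8, 31 and 29.1 CPM in the other fibroblasts. In 6 libraries every class value lay above every value of the rest, and in the detrusor-only library the class lay below the rest. The log2 difference was 4.23 (SE 0.74, edgeR adjusted p 0.00588) over the 7 libraries and 4.68 (SE 0.33, edgeR adjusted p 9.92e-05) without the detrusor-only one. After thinning to 2000 UMIs, an Rbp4 UMI was found in 92.5%, 82.0%, 69.4%, 74.4%, 76.0% and 64.8% of the class in these 6 libraries. The same share was 2.89% to 22.3% in other fibroblasts and 0% to 22.0% in urothelial cells, with 22.0% in the 22-month male library, where other fibroblasts had 22.3%.

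**Figure D2:**
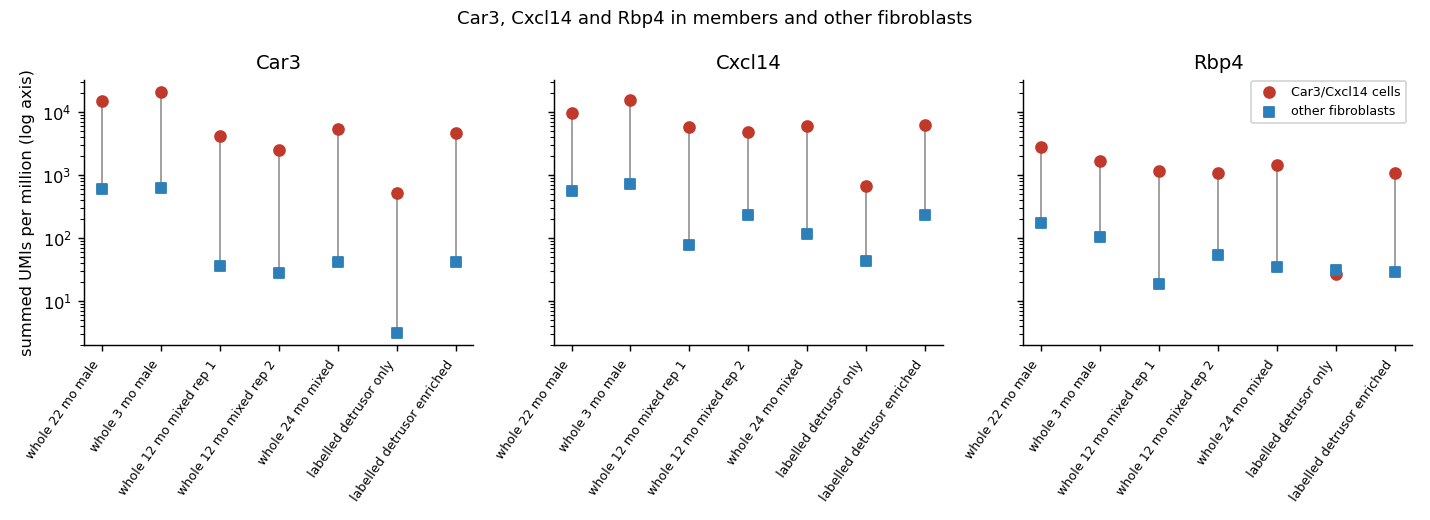
Summed UMIs as CPM on a log axis are plotted for Car3, Cxcl14 and Rbp4 in each library, with circles for the class, squares for the other fibroblasts and a line joining both cells of a library. Rbp4 circles lie between 1080.1 and 2750.1 CPM in 6 libraries, above every square, and at 26.9 CPM in the library labelled detrusor only.

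The class was then set against all other fibroblasts of the same library, with UMIs summed per library. The cells were chosen by 7 genes in these same libraries, so the p-values describe how steadily a difference recurred from library to library. The labels name pools of mice and do not say whether the libraries came from separate pools. Over 7 libraries edgeR called 2259 of 11497 genes (19.6%), 1042 higher in the class (9.06%) and 1217 lower (10.6%). Without the detrusor-only library it called 3707 of 11295 genes (32.8%), 1842 higher (16.3%) and 1865 lower (16.5%). Of those 1842 genes, 1518 to 1832 were higher in the class in each of the 6 libraries and 1011 in the detrusor-only one. These 6 libraries chose the genes, so the direction there follows largely from that choice. The number of genes called was 1476 without the 22-month library and 1393 without the detrusor-enriched one. Without both male libraries, an alternative chosen after seeing the data, it was 885.

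Genes higher in the class in all 7 libraries were led by Kcnb2, a voltage-gated potassium channel subunit, and Gatm, which makes the precursor of creatine. Kcnb2 was at 33.1, 26, 55, 38.4, 56.4, 18.7 and 83.7 CPM in the class and at 1.57, 2, 1.53, 1.7, 0.47, 0.778 and 3.45 CPM in the rest. The ranges did not overlap, and the log2 difference was 4.55 (SE 0.23, edgeR adjusted p 1.34e-06). Gatm ranged from 3.51 to 730.2 CPM against 0 to 17.5 CPM, with its lowest value in the detrusor-only library, and differed by 4.50 (SE 0.46, edgeR adjusted p 3.41e-04). Secreted factors followed. Bmp5, a Bmp ligand, differed by 3.72 (adjusted p 1.75e-04), Bdnf, a neurotrophin, by 3.38 (adjusted p 2.50e-04), and Wisp1, a matricellular protein, by 3.03 (adjusted p 7.43e-05). In the detrusor-only class Gatm and Bmp5 rested on very few UMIs, so their direction there carries little weight. Bdnf stood at 13.6, 14.9, 138, 90.9, 67.1, 123 and 41.8 CPM in the class, lowest in the 2 male libraries, and at 0 to 8.37 CPM in the rest. Of cell surface proteins, the vasopressin receptor Avpr1a rose by 2.85, the potassium channel subunit Kcns3 by 2.85, and the tetraspanins Tspan13 and Tspan8 by 3.24 and 2.84, with adjusted p-values of 1.81e-05 to 4.90e-04. Ngb (neuroglobin), Wfdc1 (a secreted protein) and Rerg (a small GTPase) rose by 3.22, 3.02 and 2.85.

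Several of the strongest differences were absent from the detrusor-only library and so appeared in full without it. Tnc, the matrix glycoprotein tenascin C, was at 484, 275, 395, 447, 423, 0 and 643 CPM in the class and at 18.9, 8.52, 3.82, 8.52, 0.941, 0.648 and 5.72 CPM in the rest. Every class value but the 0 lay above every other value, and the log2 difference was 5.56 (SE 0.67, edgeR adjusted p 9.38e-04) over 7 libraries and 5.82 (SE 0.47, edgeR adjusted p 2.61e-04) over 6. Tlr12, a Toll-like receptor, rose by 5.01, the collagen gene Col11a1 by 4.37, the protease-like Prss35 by 4.37 and the matrix protein gene Edil3 by 4.24 over the 6 libraries. Further genes named by the same rule were Ptprr (4.19), Moxd1 (4.12), Slc7a8 (3.98), Fam105a (3.89) and Chst2 (3.86). Of the 15 genes with the largest rise over 6 libraries, 3 were higher, 11 lower and 1 equal in the 42 cells of the detrusor-only library. Of the 15 with the largest fall, 14 were lower there too.

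**Figure D3:**
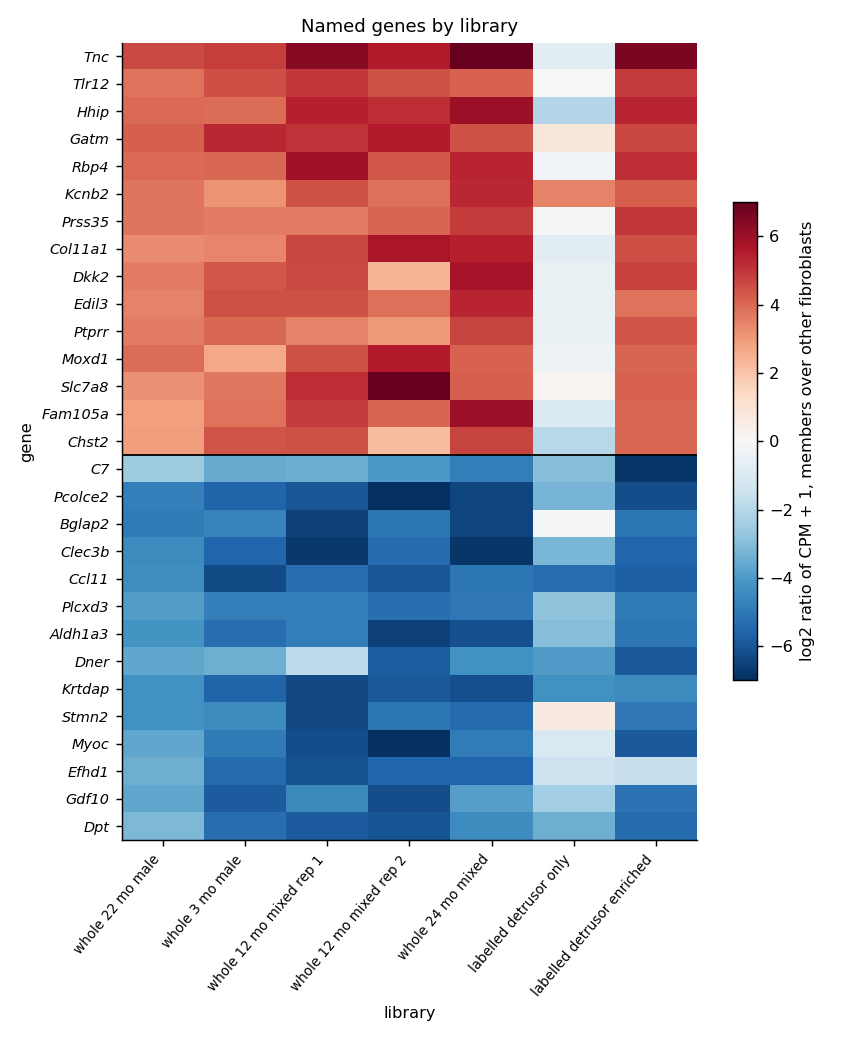
Colours give the log2 ratio of CPM + 1 in the class over the other fibroblasts of the same library (columns) for the 15 genes with the largest rise and 14 of the 15 with the largest fall over 6 libraries (rows). The upper rows are red and the lower rows blue in 6 columns, while in the column labelled detrusor only 11 of the upper genes lie below 0.

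Hedgehog pathway genes split by role. Of 10 measured, edgeR called 4 higher and 2 lower over 7 libraries, and 6 higher and 3 lower over the 6 without the detrusor-only one, with a median log2 difference of 0.62 against -0.003 for all genes tested. Of all genes 9.06% were called higher and 10.6% lower over 7 libraries, and 16.3% and 16.5% over 6. Hhip, a target gene whose product binds and restrains the ligands, was at 238, 312, 381, 276, 446, 0 and 882 CPM in the class and at 14.1, 20, 7.64, 6.81, 6.12, 3.18 and 21.2 CPM in the rest. Class values exceeded all others except for the 0 of the detrusor-only library, and the log2 difference was 4.44 (SE 0.70, edgeR adjusted p 0.00372), or 4.85 (SE 0.33, edgeR adjusted p 4.52e-05) over 6. Ptch1, the receptor and itself a target, was at 269.8, 241, 234, 231, 319, 46.8 and 788 CPM against 67.6, 74.1, 54.2, 63, 79, 84.4 and 147 CPM. The class lay above the rest in 6 libraries, without overlap, and below it in the detrusor-only one, and Ptch1 rose by 1.61 (SE 0.39, edgeR adjusted p 0.0241) over 7 libraries and by 1.97 (SE 0.10, edgeR adjusted p 4.51e-11) over 6. The target Gli1 rose by 1.26, Gli2 by 0.76 and the signal transducer Smo by 0.49 over the 6 libraries. The co-receptors moved the other way, with Gas1 at -2.77 (adjusted p 0.00126), Cdon at -2.0 (adjusted p 3.69e-06) and Boc at -0.80 (adjusted p 1.83e-04). With 7 libraries Gli1 had an adjusted p of 0.0593 and Cdon of 0.225.

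Among 18 Wnt ligands and modulators tested, 7 rose and 6 fell over 7 libraries, beside 9.06% and 10.6% of all genes, and 10 rose and 6 fell over 6 (median 0.60), beside 16.3% and 16.5%. Those that rose included inhibitors, targets and ligands. Dkk2, which blocks the Wnt co-receptors, was at 459, 354, 327, 238, 441, 0 and 748 CPM in the class and 37.2, 16.5, 12.2, 44.3, 7.06, 0.454 and 26.1 CPM in the rest, a log2 difference of 4.28 (SE 0.42, edgeR adjusted p 6.43e-04) over 6 libraries. Notum, which inactivates Wnt by removing its lipid, rose by 3.83 (adjusted p 3.52e-04), from 0.389 to 78.1 CPM in the rest to 224 to 856 CPM in the class outside the detrusor-only library, which had none. The transcription factor Lef1 rose by 3.75, the ligand Wnt4 by 2.83, the decoy receptor Frzb by 2.33, and the pathway targets Nkd1 and Axin2 by 1.99 and 1.16. Sfrp4 and Sfrp1, secreted decoys, fell by 4.07 and 3.22, the enhancer Rspo3 fell by 3.86 and the ligand Wnt2b fell by 3.81. Rspo3 and Wnt2b were higher in the class in the detrusor-only library, and their adjusted p-values over 7 libraries were 0.0177 and 0.0427.

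Bmp ligands and modulators gave 7 higher and 4 lower of 18 over 7 libraries, and 9 higher and 5 lower over 6 (median 0.41). Shares among all genes were 9.06% higher and 10.6% lower over 7 libraries, and 16.3% and 16.5% over 6. The ligands Bmp5, Bmp7 and Bmp2 rose by 3.79, 2.61 and 2.34 over the 6 libraries. Bmp5 was at 428, 346, 296, 325, 336, 1.17 and 473 CPM in the class, and at 0.68 to 46.1 CPM in the rest. The antagonists went both ways, with Nog (noggin) at 3.46, but Fst (follistatin) at -3.91. Gdf10 and Bmp6 fell by 4.91 and 3.02. Nog had no more than 21.7 CPM in any library. The edgeR adjusted p-values of these 7 genes were at most 0.00152.

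Retinoid genes showed opposite differences in 2 enzymes with the same activity. Aldh1a2, which makes retinoic acid, was at 255, 214, 159.7, 143, 145, 192 and 258 CPM in the class and at 33.2, 22.5, 6.11, 10.2, 8, 7.13 and 24.3 CPM in the rest. Class and other fibroblasts did not overlap (log2 difference 3.69 (SE 0.23, edgeR adjusted p 7.44e-06)). Aldh1a3, which catalyses the same step, was at 2.82, 3.16, 1.77, 0, 0.49, 10.5 and 2.05 CPM in the class and 69.5, 169, 77.1, 90.3, 103, 91.1 and 99.7 CPM in the rest, again without overlap, and fell by 5.28 (SE 0.36, edgeR adjusted p 1.63e-05). In all, 4 of 14 retinoid genes were called higher and 5 lower, with 7 and with 6 libraries, beside 9.06% and 10.6% of all genes with 7 and 16.3% and 16.5% with 6. The receptor gene Rarb and the retinol dehydrogenase Rdh10 rose by 1.45 and 1.08 over 6 libraries. Of 5 carbonic anhydrases other than Car3 tested over 6 libraries, Car2 and Car13 rose by 1.46 and 0.78 and Car8 fell by 2.29, all at mean levels of at most 17 CPM in the class.

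Matrix genes went both ways. Of 17 fibroblast collagens tested, 10 were called higher and 5 lower over 6 libraries (median 0.94), and 5 and 5 over 7. For this and the other matrix lists, the shares among all genes were 16.3% higher and 16.5% lower over 6 libraries and 9.06% and 10.6% over 7. Col6a3, a chain of microfibrillar collagen, was at 699, 316, 685, 842, 486, 43.3 and 1374 CPM in the class and 152, 35.1, 68, 121, 61.2, 189 and 217 CPM in the rest, and rose by 2.76 (SE 0.13, edgeR adjusted p 8.82e-10) over 6 libraries. Its class value lay below the rest in the detrusor-only library, and the 7-library adjusted p was 0.0431. Col12a1 and the basement membrane chains Col4a2 and Col4a1 rose by 2.36, 1.83 and 1.63. Col14a1, a fibril-associated collagen, fell by 3.51 over 7 libraries (SE 0.16, edgeR adjusted p 9.82e-07), with 13.6 to 172 CPM in the class and 214 to 1589.7 CPM in the rest. Elastic fibre genes gave 1 higher and 9 lower of 16 over 7 libraries and 4 and 10 over 6 (median -1.48). Eln, which encodes elastin, was at 20.8, 10.9, 16, 21, 9.8, 15.2 and 12.3 CPM against 224, 40.6, 89.4, 164, 68.2, 115 and 153 CPM and fell by 3.02 (SE 0.21, edgeR adjusted p 8.40e-06). Fbln2 fell by 2.43 and Emilin2 by 2.90, while the cross-linking enzyme Lox rose by 1.32 over 6 libraries and had an adjusted p of 0.0768 over 7. Small leucine-rich proteoglycans (4 higher and 4 lower of 8) and matrix proteases with their inhibitors (6 and 7 of 15) went both ways over 6 libraries, and the gelatinase Mmp2 rose by 1.85 (adjusted p 3.68e-11, or 0.165 over 7).

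The 15 largest falls included secreted proteins, membrane proteins and an enzyme. Ccl11, the eosinophil attractant eotaxin, was at 8.36, 3.16, 3.55, 6.99, 3.92, 3.51 and 2.27 CPM in the class and at 189, 320.1, 179, 499, 162, 181 and 171 CPM in the rest. The class was low in all 7 libraries and the groups did not overlap, with a log2 difference of -5.74 (SE 0.28, edgeR adjusted p 2.40e-06). Clec3b, which encodes the plasminogen-binding tetranectin, was at 126, 51.3, 36.4, 76.9, 27.9, 302 and 37.2 CPM against 2848, 2493, 3966, 3293, 3183, 2784 and 1765 CPM and differed by -5.48 (SE 0.49, edgeR adjusted p 1.85e-04). C7, a component of the membrane attack complex, was at 0 to 26.9 CPM against 12.2 to 218 CPM, highest in both groups in the detrusor-only library, and differed by -5.01 (SE 0.76, edgeR adjusted p 0.00303). Bglap2 (osteocalcin, which has near-identical copies in the genome), Pcolce2 (an enhancer of procollagen processing), Adamtsl3, Krtdap and Plcxd3 fell by 6.00, 5.70, 5.66, 5.39 and 5.26. Dner (a Notch ligand), Efhd1, Scara5 (a ferritin receptor), Dpt (dermatopontin), Angptl7 and Gdf10 had differences of -4.95, -4.83, -4.78, -4.77, -4.73 and -4.62, all over 7 libraries with adjusted p-values of at most 0.00108. Over the 6 libraries Stmn2 and Myoc were among the 15 largest falls as well, at -5.14 and -5.12.

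By list, 16 of 18 adventitial fibroblast genes were lower and 1 higher over 6 libraries (median -2.03), and 12 were lower and 0 higher over 7. Among all genes, beside which these and the next lists stand, 16.3% were higher and 16.5% lower over 6 libraries and 9.06% and 10.6% over 7. The rule kept cells high in Pi16, an adventitial marker, out of the class, so it favoured a fall of adventitial genes. The higher adventitial gene was Fn1, which encodes fibronectin. It rose by 1.09 over 6 libraries and had an adjusted p of 0.416 over 7. Cd34, a surface glycoprotein of adventitial fibroblasts, was at 123, 70.3, 18.6, 69.9, 26.5, 276 and 39.6 CPM in the class and 1549, 1569, 979, 831, 885, 774 and 709.6 CPM in the rest, and fell by 4.10 (SE 0.48, edgeR adjusted p 8.07e-04). Complement genes gave 1 higher and 8 lower of 13 over 6 libraries (median -1.33) and 1 and 5 over 7. The regulator Cd55 fell by 3.75 over 7 libraries. C3 fell by 2.59 (adjusted p 0.0297) over 6, but in the detrusor-only library it stood at 5036 CPM in the class and 689 CPM in the rest. Chemokines other than Cxcl14 gave 2 higher and 6 lower of 12 (median -1.41) and, over 7 libraries, 1 and 6 of 13. Parenchymal fibroblast genes gave 2 higher and 8 lower of 15 over 6 libraries (median -0.58) and 1 and 6 over 7. Of 12 general fibroblast genes, 5 rose and 5 fell over 6 libraries, and Gsn (gelsolin) fell by 3.17 over 7, from 15451 to 40103 CPM to 1673 to 4449 CPM. Pdgfra, a receptor found on most fibroblasts, did not pass the test, with a log2 difference of 0.03 (SE 0.10, adjusted p 0.875) over 6 libraries.

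**Figure D4:**
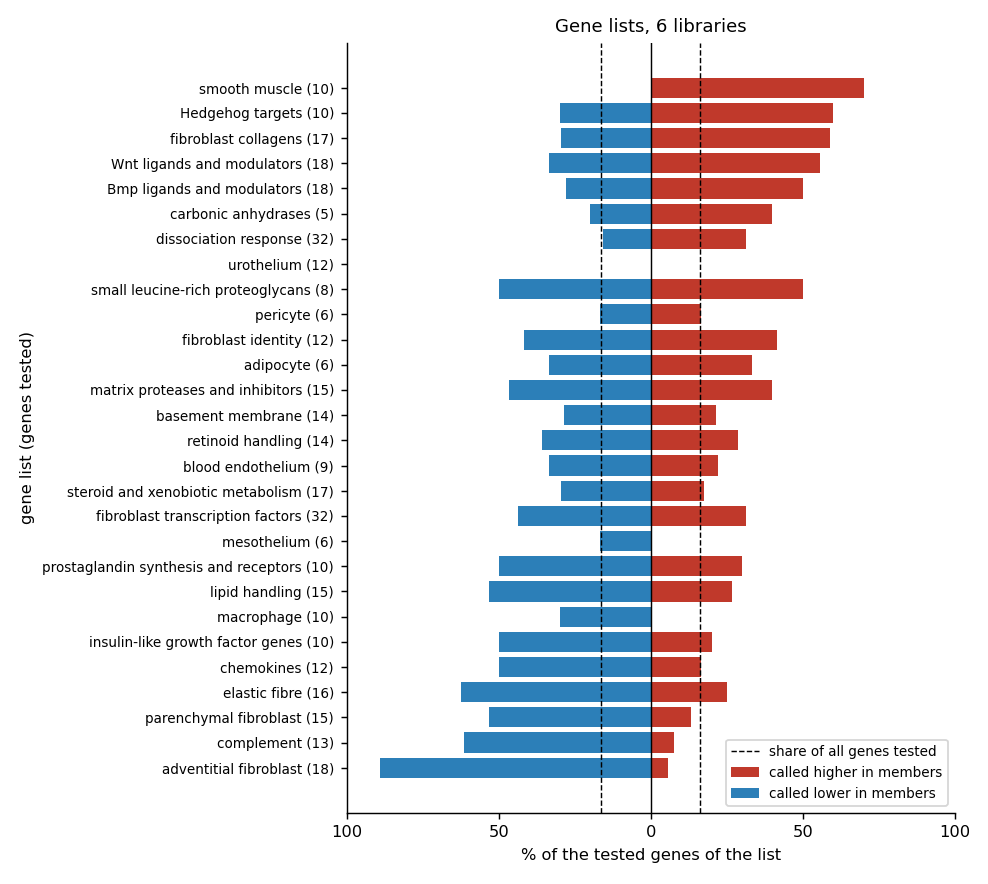
Bars give the percentage of each list's tested genes (number in brackets) that edgeR called higher (right, red) or lower (left, blue) in the class over 6 libraries, with dashed lines at the shares among all genes tested, 16.3% and 16.5%. Smooth muscle, Hedgehog, collagen, Wnt, Bmp and small proteoglycan lists extend farthest to the right and the adventitial, complement and elastic fibre lists farthest to the left.

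Acta2, Myl9 and Tagln, contractile genes of smooth muscle, were higher in the class, and Des was lower over 7 libraries. Of 10 smooth muscle genes tested, 4 were called higher and 1 lower over 7 libraries, and 7 higher and 0 lower over 6 (median 2.46), counting Hhip, which is also on the Hedgehog list. All genes gave 9.06% higher and 10.6% lower over 7 libraries and 16.3% and 16.5% over 6. Acta2, smooth muscle actin, was at 2439.8, 438, 416, 423, 1149.9, 595 and 1189.8 CPM in the class and at 257, 69.1, 58.8, 13.6, 153, 324 and 191 CPM in the rest. The class was higher in each library and the groups did not overlap, with the 22-month library highest in the class, and the log2 difference was 2.68 (SE 0.40, edgeR adjusted p 0.00265). Myl9, the regulatory light chain of myosin, was at 1641, 1004, 365, 209.7, 837, 191 and 537 CPM against 159, 68.1, 26.7, 22.1, 54.1, 122 and 63 CPM and rose by 3.10 (SE 0.44, edgeR adjusted p 0.00226). The detrusor-only library showed the smallest difference, and without it Myl9 rose by 3.49 (SE 0.13, edgeR adjusted p 8.48e-12). Tagln rose by 2.61 (adjusted p 3.86e-04) over 7 libraries. Actg2, Myh11 and Lmod1 rose by 2.64, 2.63 and 2.29 over 6 libraries, with adjusted p-values of 0.0116, 9.14e-04 and 0.039, and had 0.0989, 0.103 and 0.238 over 7. Des (desmin) went against the others, at 18.7, 1.13, 0.887, 0, 1.47, 74.9 and 46.7 CPM in the class and 43.6, 20, 9.17, 27.3, 19.3, 154 and 64.6 CPM in the rest, lower in 7 of 7 libraries, with a log2 difference of -1.74 (SE 0.45, edgeR adjusted p 0.0285) and an adjusted p of 0.0639 over 6. Cnn1 had a log2 difference of 1.03 (adjusted p 0.235).

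The whole list of 12 smooth muscle genes, which holds Hhip and not Myl9, summed to 4575, 935, 1134, 941, 2245, 1579 and 3162 CPM in the class and to 520, 166, 131, 117, 255, 1179 and 635 CPM in the rest, with 7 to 12 genes detected in the class per library and Des, Cnn1, Lmod1, Pcp4 and Myocd at 0 in the second 12-month library. Hhip alone, a Hedgehog target, was at 238, 312, 381, 276, 446, 0 and 882 CPM in the class, a large share of the sum in the 3-month and 12-month libraries. Whether transcripts of smooth muscle cells had part in this difference was not tested. After thinning to 2000 UMIs, an Acta2 UMI was found in 77.0%, 30.0%, 36.0%, 17.9%, 60.4% and 62.4% of the class in the 6 libraries other than detrusor-only. The shares were 20.3%, 6.05%, 5.79%, 3.96%, 9.35% and 23.6% in the other fibroblasts and 16.0%, 1.42%, 1.18%, 0%, 2.88% and 11.1% in urothelial cells, so each library had more in the class than in cells of either kind. Genes of pericytes (1 higher and 1 lower of 6), blood endothelium (2 and 3 of 9), macrophages (0 and 3 of 10) and adipocytes (2 and 2 of 6) were called over 6 libraries, beside 32.8% of all genes, and urothelium gave 0 of 12 (edgeR). Adipoq and Cidea, which mark adipocytes, were at 0 in the class in each of the 7 libraries.

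Many contractile genes are bound by serum response factor at CArG boxes, so the promoters of 4 contractile genes with an entry in the RefSeq promoter table (GRCm38.p6) were searched for the CArG box on both strands in the 250 bases before the gene start. Myl9 was the gene with a match, and the stretch around it is shown to place the box relative to the gene that rose in the class. The 90 bases lie at chr2:156775263-156775352 on the plus strand, 5′ to 3′, with the box in capitals 161 bases before the gene start.
Myl9: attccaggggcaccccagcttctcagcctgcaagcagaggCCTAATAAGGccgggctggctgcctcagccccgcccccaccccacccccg
A box of this kind was present in 482 of 32851 promoters (1.47%). A match is a description of these letters and no evidence of binding.

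Set against the adventitial-type Pi16/Mfap5 cells alone, the class had more of creatine synthesis enzyme Gatm, potassium channel Kcnb2, Bmp5 and Aldh1a2, and less of the adventitial genes. Of 11119 genes edgeR called 2201 (19.8%), 1067 higher in the class (9.6%) and 1134 lower (10.2%). Without the detrusor-only library the count was 3335 of 10886 (30.6%), 1725 higher (15.8%) and 1610 lower (14.8%), and without the detrusor-enriched library 1340. Without the 2 male libraries it was 1036. Among the largest rises over 7 libraries were Gatm (4.98), Kcnb2 (4.91), the amino acid transporter Slc7a8 (4.75), Bmp5 (4.44), Wisp1 (4.25), Aldh1a2 (4.23) and the heparin-binding factor Ptn (4.15), each higher in all 7. Gatm, Slc7a8 and Bmp5 rested on very few UMIs in the detrusor-only class. Akr1c18, a steroid-metabolising enzyme, had the largest fitted fall, -8.38 (SE 0.46, edgeR adjusted p 1.12e-06), a value that depends on the prior count because the class had almost no UMIs of it. It was at 0.113, 0.226, 0, 0, 0, 0 and 0 CPM in the class and 7.33, 229.7, 25.8, 29.3, 19.1, 0.711 and 0.486 CPM in the Pi16/Mfap5 cells, highest in the 3-month library. Bglap2, Krtdap, Pcolce2, Adamtsl3, Clec3b, Efhd1 and Ccl11 fell by 5.38 to 6.67. Without the detrusor-only library Tnc rose by 6.48 (SE 0.43, edgeR adjusted p 5.17e-05) and Hhip by 5.57 (SE 0.31, edgeR adjusted p 2.57e-06), the top values, and Hhip stood at 11.2, 6.04, 6.2, 5.33, 2.3, 4.51 and 13.4 CPM in the Pi16/Mfap5 cells. Adventitial genes were then 17 lower and 1 higher of 18, Hedgehog genes 6 higher and 2 lower of 10, and smooth muscle genes, a list that also holds Hhip, 7 higher and 0 lower of 10. Pi16, an adventitial marker, chose the Pi16/Mfap5 cells and limited the class, so the rule favoured a fall of adventitial genes.

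Against Inmt/Sult1e1/Penk cells, 5 libraries had at least 20 cells of both kinds (22-month, 3-month, 24-month, detrusor-only and detrusor-enriched). The class had more Lef1, Dkk2, Hhip and Bmp5, and less Cilp, C7 and Gdf10. Of 11653 genes edgeR called 1049 (9%), 463 higher in the class (3.97%) and 586 lower (5.03%). Without the detrusor-only library it called 2631 of 11370 (23.1%), 1406 higher (12.4%) and 1225 lower (10.8%). The count was 417, 552, 582 and 380 without the 22-month, 3-month, 24-month and detrusor-enriched library and 142 without the 2 male ones. With 5 libraries the named rises included Cxadr (7.80), an adhesion receptor, Palmd (6.40), Cyp2s1 (5.81), Kcnb2 (5.85), Aldh1a2 (5.31), Tlr12 (4.65), Wfdc1 (4.48) and Bmp5 (4.38). These 5-library values rest in part on the 42 detrusor-only cells. Cxadr was at 0.903, 1.36, 4.9, 436 and 12.3 CPM in the class, high only in the detrusor-only library, and at 0, 0, 0, 1.26 and 0.412 CPM in the Inmt/Sult1e1/Penk cells. Palmd was at 187 CPM in the detrusor-only class and 0.452 to 7.34 CPM elsewhere, and Cyp2s1 at 159.1 CPM against 24.0 to 45.0 CPM elsewhere. Over 4 libraries the named rises were Kcnb2, Tnc, Prss35, Hhip, Dkk2, Lef1, Bmp5 and Aldh1a2, with 4.72 to 6.31. Lef1, a transcription factor of the Wnt pathway, was at 46.3, 76.2, 57.3, 0 and 50.5 CPM in the class and 0.691, 1.65, 4.63, 0.279 and 0.823 CPM in the Inmt/Sult1e1/Penk cells, and rose by 5.45 (SE 0.35, edgeR adjusted p 2.46e-10) over 4 libraries. Cilp, a cartilage matrix protein gene, was at 1.36, 0.452, 0, 31.6 and 0.881 CPM against 93.3, 31.3, 32.4, 145 and 168 CPM and fell by 7.0 over 4 libraries. C7, Gdf10, Dlk1, Col6a5, Ccl11, Myoc and Aldh1a3 had differences of -7.35 to -6.07. Beside the next lists stand the shares of all genes, 3.97% higher and 5.03% lower over 5 libraries and 12.4% and 10.8% over 4. Inmt, Sult1e1 and Penk chose the second arm and limited the class, so the rule favoured a fall of genes that go with them. Parenchymal fibroblast genes were 10 lower and 2 higher of 16, and Hedgehog genes 5 higher and 4 lower of 10. Wnt genes were 10 higher and 6 lower of 19, and Bmp genes 8 higher and 6 lower of 19. Smooth muscle genes gave 2 calls of 10, Hhip and Smtn, both higher, where 9% of all genes were called over 5 libraries and 23.1% over 4. Dissociation response genes were 13 lower and 2 higher of 32. The 3 comparisons share the class as 1 arm, so their values stand side by side and are not independent.

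Within the class, cells leaning to Car3 had more Acta2 and Rbp4, and cells leaning to Cxcl14 more Apod and Sfrp1. Members with Car3 at least 2 times Cxcl14 were set against members with Cxcl14 at least 2 times Car3 in the 5 libraries with at least 20 of each, which were 1035 and 173 cells (22-month), 848 and 344 (3-month), 26 and 69 (first 12-month), 66 and 84 (24-month) and 152 and 346 (detrusor-enriched). Of 7717 genes edgeR called 34 (0.441%), 14 higher in Car3-leading cells (0.181%) and 20 higher in Cxcl14-leading ones (0.259%). Acta2 was at 2633, 470.1, 519.9, 1205 and 1561 CPM in Car3-leading and 864, 221, 255, 810.1 and 795 CPM in Cxcl14-leading cells, higher in 5 of 5 libraries, with a log2 difference of 1.05 (SE 0.14, edgeR adjusted p 0.0115). Among the other genes higher in Car3-leading cells were the focal adhesion proteins Vcl, Actn1 and Zyx (0.74, 0.62 and 0.60), the myosin kinase Mylk (0.62), tropomyosin Tpm1 (0.54) and Actb (0.35), the last 2 chosen after their values were seen. Of 9 smooth muscle genes tested, 1 was called higher and 0 lower. The chemokine Ccl5 had the largest rise, 2.13 (SE 0.29, edgeR adjusted p 5.69e-04). It stood at 57.2, 33.6, 6.67, 5.6 and 136 CPM against 33.4, 5.34, 2.55, 4.46 and 21.4 CPM, with the widest gap in the detrusor-enriched library. In the first 12-month and the 24-month library both arms had the same very small number of Ccl5 UMIs. The gap in those libraries comes only from the different UMI totals of the arms. Rbp4 was at 2681, 1680.5, 1307, 1319 and 895 CPM against 1697, 1155, 830.3, 969 and 787 CPM and rose by 0.48 (SE 0.08, edgeR adjusted p 0.00254).

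Cxcl14-leading cells had more of Apod, a lipid-binding lipocalin, with a difference in Car3-leading cells of -1.37 (SE 0.22, edgeR adjusted p 0.00254). It was at 206, 87.2, 28.1, 24.5 and 56.8 CPM in Cxcl14-leading and 41.5, 36.9, 26.7, 11.2 and 32.6 CPM in Car3-leading cells, with a small gap in the first 12-month library. The Wnt decoy Sfrp1 (-1.17), Itm2a (-1.06), the nucleotide-hydrolysing Entpd2 (-1.02), Igfbp4 (-0.91), Emp1 (-0.77), Fxyd6 (-0.76) and Asz1 (-0.75) were lower in Car3-leading cells as well. Xist, the RNA of the silenced X chromosome in females, was also called, at 1.04 (SE 0.17, edgeR adjusted p 0.00254). It was at 490 and 803 CPM in Car3-leading and 217 and 383 CPM in Cxcl14-leading cells of the first 12-month and the 24-month library, while summed Y-linked genes were at 101 and 49.9 CPM against 135 and 113 CPM. Sex-linked transcripts moved with the comparison in these mixed libraries, and their part in the other differences was not tested. None of 8 Hedgehog genes and 14 Bmp genes tested was called by edgeR, and 1 of 13 Wnt genes was (Sfrp1). The count was 11 without the 22-month library, 21 without the 3-month one and 2 without both. It was 80 without the filter on low counts.

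Age could be compared over the 5 whole-bladder libraries, with 22 and 24 months against 3, 12 and 12 months and the sex mix as a term. The older class had more of a few contractile genes. Of 10215 genes edgeR called 8 (0.0783%), 5 higher (0.0489%) and 3 lower (0.0294%) in older libraries. Acta2 in the class was at 2440 and 1150 CPM at 22 and 24 months and at 438, 416 and 423 CPM at 3, 12 and 12 months, and it rose by 1.92 (SE 0.27, edgeR adjusted p 0.00381) with age. The older and younger libraries did not overlap. Cnn1 (calponin), an actin-binding protein, was at 91.2 and 13.2 CPM against 1.13, 0.887 and 0 CPM, which were 5, 1 and 0 UMIs. It rose by 6.08 (SE 0.53, edgeR adjusted p 2.24e-05). Fbxl22, an F-box protein of muscle, rose by 2.46 (SE 0.31, edgeR adjusted p 0.00149), and Lmod1 and Dpt by 3.19 and 2.58. Angptl4, an inhibitor of lipoprotein lipase, fell by 2.36 (SE 0.39, edgeR adjusted p 0.0179), and Serpina3m and the haemoglobin gene Hbb-bs, both from families of similar copies, had log2 differences of -2.61 and -3.55. Hbb-bs was at 16.0 and 0.49 CPM in the older libraries and at 214, 0 and 0 CPM in the younger ones, so that only the 3-month library lay above the older 2. Serpina3m was at 7.45 and 3.43 CPM against 58.1, 10.6 and 14.0 CPM.

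Other fibroblasts showed the same order for Acta2, at 257 and 153 CPM in older and 69.1, 58.8 and 13.6 CPM in younger libraries, and for Cnn1, at 15.6 and 5.65 CPM against 3.01, 1.53 and 1.70 CPM. Whether smooth muscle transcripts outside the cells had part in this was not tested. Of 9 smooth muscle genes tested in the class, 3 were called (Cnn1, Lmod1 and Acta2). Myl9 had a log2 difference of 1.17 (adjusted p 0.223) and Myh11 of 2.33 (adjusted p 0.108), neither called. None of 9 Hedgehog, 15 Wnt, 15 Bmp and 12 retinoid genes was called by edgeR, and Rbp4, Tnc, Hhip, Kcnb2 and Aldh1a2 differed by 0.53, 0.38, 0.08, 0.28 and 0.09. The number of genes called was 75 without the 24-month library, 40 without the first and 35 without the second 12-month one, 46 without the filter on low counts and 0 without the sex term (38 at an unadjusted p under 0.05). All 8 genes were among those called without either 12-month or the 24-month library. Without the 22-month library it was 11, of which 1 was among the 8 (Acta2), and without the 3-month library 12, of which 3 were (Acta2, Fbxl22 and Lmod1). The calls of Cnn1, Dpt and Angptl4 were lost without either male library.

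**Figure D5:**
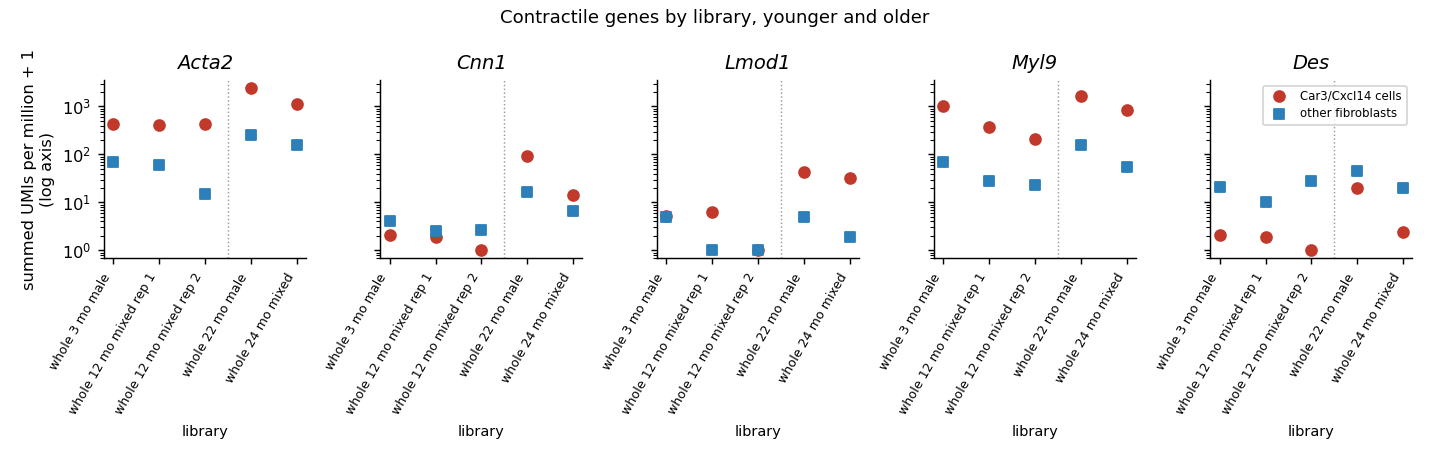
Levels as CPM + 1 on a log axis are plotted for Acta2, Cnn1, Lmod1, Myl9 and Des in 5 whole-bladder libraries, younger to the left and older to the right of the dotted line, with circles for the class and squares for the other fibroblasts. Acta2 circles are at 416 to 438 CPM in the younger libraries and at 1150 and 2440 CPM in the older ones, and the Acta2 squares are higher on the right as well.

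The same rule took 18 of the 308 fibroblast nuclei of the single nucleus library, which is 1 sample and allows no test. Of these 18, 6 had exactly 3 UMIs of Car3 plus Cxcl14 and 9 had both genes. At least 3 UMIs of the 4 mesothelial markers were found in 3 of them (16.7%, exact binomial interval 3.58% to 41.4%) and in 23 of the 290 other fibroblast nuclei (7.93%), with Msln at 395 and 110.0 CPM. The part of these nuclei in the values was not tested. Intervals of CPM are exact Poisson 95% intervals, and all intervals cover counting error only. Leaving aside the gate genes, members held 395 CPM (189 to 726) of Hhip against 33.6 CPM (16.8 to 60.1) in the other fibroblast nuclei, and 237 CPM (86.9 to 516) of Tnc against 15.3 CPM (4.96 to 35.6). Dkk2 was at 237 CPM (86.9 to 516) against 6.11 CPM (0.74 to 22.1) and Col11a1 at 158 CPM (43 to 404) against 0 of 327329 UMIs. Of these 4 genes the intervals did not overlap. Others of the genes named as higher were barely counted, with 1 UMI each for Gatm, Prss35, Ptprr and Fam105a in member nuclei and 0 for Kcnb2, Tlr12, Edil3, Moxd1, Slc7a8 and Chst2, of which Slc7a8 and Chst2 had 4 UMIs each in the other nuclei. Rbp4, the third marker, had 0 UMIs among the 25327 of the member nuclei, which allows up to 146 CPM. Acta2 was at 3632 CPM (2928 to 4455) in members and 3107 CPM (2919 to 3304) in the other nuclei, with overlapping intervals. The wide gap in Acta2 between class and other fibroblasts of the cell libraries was thus not seen in these nuclei, and the reason was not tested. The smooth muscle list, which holds Hhip and not Myl9, made up 15043 CPM of member and 14206 CPM of other fibroblast nuclei. Myl9 was at 632 CPM in members and 950.1 CPM in the others.

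In the 4 tissue sections, where a spot can hold several cells, Car3, Cxcl14 and Rbp4 were counted per spot with no cell calls. Car3 was at 283, 126, 146 and 189 CPM in the 22-month replicates 1 and 2 and the 14-month replicates 1 and 2, and Rbp4 at 72.8, 45.7, 44.3 and 45.4 CPM. Car3 was found in 65.0, 62.7, 57.1 and 62.0% of the 1317, 1038, 937 and 1123 spots. Across the spots of each section, the Spearman correlation of the Car3 level with the summed genes of the urothelium list was 0.59, 0.38, 0.55 and 0.60, and with the smooth muscle genes -0.64, -0.51, -0.46 and -0.58. Spots rich in Car3 were richer in urothelial and poorer in muscle transcripts in all 4 sections, which are of males. Urothelial cells of the 22-month and 3-month cell libraries held Car3 too, at 397 and 302 CPM, so these correlations do not place the class. The part of urothelial Car3 in the correlations was not tested. For Rbp4 the correlation with the urothelial genes was 0.50, 0.31, 0.46 and 0.43, and for Cxcl14 it was 0.52, 0.16, 0.57 and 0.49. The correlation of Car3 with the summed Hhip, Dkk2, Tnc and Bmp5 was 0.54, 0.33, 0.31 and 0.44, with Pi16 and Mfap5 -0.12, -0.20, -0.14 and -0.29, and with Inmt, Sult1e1 and Penk -0.30, -0.01, -0.38 and -0.31. The correlation of Car3 with the UMI total of a spot was 0.58, 0.36, 0.51 and 0.38. Spots of a section share a slide, their depth and neighbouring tissue, and how far depth sets these values was not tested.

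Bulk RNA of intact bladder and of dissociated cells, 3 samples each, gave levels of the genes that were high in the class. Other cells can carry these genes too, so the bulk levels do not measure the class itself. In bulk samples fewer cells of a type and less RNA per cell cannot be told apart. Of 16538 genes edgeR called 9798 (59.2%), 4620 higher (27.9%) and 5178 lower (31.3%) in dissociated cells. Car3 was at 434, 343 and 516 CPM in intact and 522, 423 and 606 CPM in dissociated samples, groups that overlap, with a log2 difference of 0.38 (SE 0.19, edgeR adjusted p 0.118). Rbp4 was at 49.5, 42.2 and 48.9 CPM in intact and 77.7, 67.9 and 89.4 CPM in dissociated samples and rose by 0.86 (SE 0.13, edgeR adjusted p 8.21e-04). Hhip, at 51, 48.2 and 47.9 CPM in intact samples, rose to 163, 95.2 and 169 CPM, by 1.65 (SE 0.22, edgeR adjusted p 4.94e-04), and Cxcl14, Tnc and Bmp5 rose by 0.76, 0.79 and 1.21.

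Genes of other fibroblasts rose too, with Dcn at 1.52, Pi16 at 1.52 and Inmt at 1.17. Whether these rises differ from those of the class's genes was not tested. Of the 15 genes named as higher in the class over 6 libraries, 11 were higher in dissociated samples and 0 lower, with a median log2 difference of 0.74. Of the 15 named as higher over 7 libraries, 8 were higher and 3 lower, with a median of 0.69. Of the 15 named as lower in the class over 6 libraries, 14 were higher and 0 lower, with a median of 1.49. Among all genes tested 27.9% were higher and 31.3% lower, with a median of -0.03. Smooth muscle genes went the other way, with Acta2 at 7505, 7363 and 7540.1 CPM in intact and 703, 650.0 and 564 CPM in dissociated samples and a difference of -3.44 (SE 0.12, edgeR adjusted p 1.14e-06), and Myl9 at 2760.0, 2649 and 2625 CPM against 250.1, 214 and 195 CPM.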

How the data were processed

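Gene by barcode UMI counts of 7 single-cell libraries, 1 nuclei library and 4 tissue sections, and gene counts of 6 bulk RNA libraries, were used as the authors deposited them. Per the submitters' processing notes, bcl2fastq, Cell Ranger, Space Ranger, Subread and featureCounts were used with the mouse build mm10; versions are not given in the sources used here. The deposited gene tables differed between libraries, and single-cell fits used the 26344 genes common to all. Members and gene lists were chosen with earlier results of these data known.

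UMIs were summed per library and cell class where each class had at least 20 cells. Fits used edgeR 4.0.16 quasi-likelihood tests (R 4.3.3, limma 3.58.1; TMM scaling, filterByExpr, robust estimation) with the library as a block, and genes at a Benjamini-Hochberg adjusted p under 0.05 were called. Differences are log2 fold changes with standard errors. The age fit had a term for libraries of males alone or of both sexes, and the bulk fit no block, since correlations of same-numbered samples were 0.20, 0.34 and -0.07. CPM values are UMIs or reads scaled to a common total over the genes used, with no further scaling (common genes in the tested comparisons, all genes elsewhere). Libraries are pools of animals. With the library as a block, p-values measure how steadily a difference within a library recurred from library to library. In the age and bulk fits they measure the spread between libraries.

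Genes named in the text are the 15 largest rises and falls for the class against other fibroblasts and the 8 largest otherwise. They had to be called, average 20 CPM or more over the arms and go 1 way in every library (for age and bulk, groups that do not overlap). Predicted, mitochondrial, ribosomal and haemoglobin genes were passed over for ranks, and up to 4 called genes per list were added. Further genes (Tpm1, Actb, Xist, Hbb-bs, Serpina3m, the anhydrases and the bulk fibroblast genes) were chosen for their function or after their values were seen. A few genes the rule names are not reported here. Doublets were kept, and were removed in an alternative. Alternatives also covered RLE scaling, DESeq2 1.42.0, no count filter, no block, thinned cells, a stricter gate, a fold threshold and each library left out. The fits were tested on simulated data first. Python 3.11.15, scanpy 1.11.5, scipy 1.17.1, numpy 2.4.6, pandas 2.3.3 and matplotlib 3.10.9 were used.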

Additional observations from a re-analysis of the deposited data

Results flagged for a closer look

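Dixon's ratio compares the gap between the most extreme library and its neighbour with the whole range, and its 95% critical value for 7 libraries is 0.568. It was computed for 45 values, the share of the class and the log2 ratio of class to other fibroblasts (CPM + 1) for single genes, of which 13 passed it. Chance passes about 1 in 20 groups, but most of these genes were ranked by their difference in the other 6 libraries, which favours the detrusor-only one as the extreme, so that share does not apply here. In all 13 the library labelled detrusor only was the one that lay apart. Rbp4 was at -0.20 there, with the nearest library at 3.99. Tnc stood at -0.72 (nearest 4.60), Hhip at -2.06 (nearest 3.9), Tlr12 at 0 (nearest 3.81), Gatm at 0.80 (nearest 4.18) and Prss35 at -0.13 (nearest 3.56). Values for Col11a1, Edil3, Ptprr and Chst2 were -0.80, -0.53, -0.44 and -1.92, with the nearest at 3.30, 3.45, 3.03 and 2.20. Myl9 was at 0.64 (nearest 3.07). Among genes lower in the class elsewhere, Bglap2 was at -0.09 (nearest -4.65) and Stmn2 at 0.61 (nearest -4.22). These are the 42 cells of which 34 carried mesothelial transcripts.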

How the results depend on the processing

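The number of genes called depended on the library block and on single libraries. With no replicate block, the calls were 648 for the class against all other fibroblasts, 698 against Pi16/Mfap5 cells, 368 against Inmt/Sult1e1/Penk cells and 0 for Car3-leading against Cxcl14-leading members (23 at an unadjusted p under 0.05). Bulk samples share replicate numbers that the labels do not say pair them, and a replicate block gave 10118 calls. Leaving out 1 library in turn gave 1393 to 3707, 1340 to 3335, 380 to 2631 and 11 to 47 calls in the 4 single-cell comparisons and 11 to 75 for age. Without the 2 male libraries, an alternative chosen after seeing the data, the 4 counts were 885, 1036, 142 and 2. A log2 difference tested against 1 left 503 calls for the class against all others. Without the count filter the Car3-leading comparison had 80 calls and age 46, and without the sex term age had 0 (38 at an unadjusted p under 0.05). RLE scaling, DESeq2 and removed doublets (run for the 3 comparisons of the class with other fibroblasts) kept the counts within 1.5 times. Thinning (not run for age) left 16 members in the detrusor-only library, under the 20 required, so it dropped out of those fits. The 3 thinned comparisons of the class with other fibroblasts called 2361, 1991 and 1339 genes, against 3707, 3335 and 2631 unthinned without that library. The thinned Car3-leading comparison had 29 calls and shared only 13 of them with the 34 of the unthinned one. The class share was 54.8%, 81.4%, 0.470% and 43.0% in the 22-month, 3-month, detrusor-only and detrusor-enriched libraries after thinning, and 40.2%, 59.0%, 0.776% and 37.5% when a lead of 4 times was asked. A 2% fibroblast limit gave 42.9% in the detrusor-enriched library and 48.5% and 38.0% in the 12-month ones. For these changes the cause was not tested. Of 6441 values for single named genes under alternatives, 5481 stayed on the same side of the threshold, 226 passed it newly and 734 lost it. Among genes called in either fit 0 turned direction. A turn with no call in either fit was counted as staying. The Inmt/Sult1e1/Penk comparison could not be fitted over mixed libraries alone, since 1 of the 3 had 20 cells in both arms. Few cells limit the 12-month libraries (189 and 42 members), the detrusor-only one (42) and the nuclei (18), and UMIs per cell were lowest in the male libraries.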

Other observations

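Transcription factor genes in the class split in both directions. Of 32 tested, edgeR called 8 higher and 10 lower over 7 libraries, beside 9.06% and 10.6% of all genes, with a median log2 difference of -0.33. Without the detrusor-only library it called 10 higher and 14 lower, beside 16.3% and 16.5% of all genes. Over those 6 libraries Runx2 and Runx1, regulators of skeletal and blood development, rose by 2.73 (SE 0.18, edgeR adjusted p 1.86e-09) and 2.58 (SE 0.14, edgeR adjusted p 1.25e-09). The T-box factors Tbx2 and Tbx3 rose by 2.44 and 1.47, and the forkhead factors Foxf1 and Foxf2, which in gut mesenchyme respond to Hedgehog, by 1.55 and 1.90. Ebf2, a factor of adipocyte precursors, fell by 5.60 (SE 0.40, edgeR adjusted p 2.93e-07), Ebf1 by 4.20, Prrx1 by 4.47 and Hoxd13, a posterior patterning gene, by 4.81.

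Prostaglandin genes also split. Of 10 tested over 6 libraries, 3 were higher and 5 lower in the class, to be read against the same 16.3% and 16.5%, as are the next counts. Ptgs1, the constitutive cyclooxygenase, rose by 1.98 (SE 0.21, edgeR adjusted p 1.38e-04) over 7 libraries. The prostaglandin F receptor Ptgfr fell by 4.49 (SE 0.21, edgeR adjusted p 1.74e-11) over 6 libraries and the prostacyclin receptor Ptgir fell by 3.98 (SE 0.39, edgeR adjusted p 4.15e-07). Of 10 insulin-like growth factor genes 2 were higher and 5 lower over 6 libraries, and of 15 lipid genes 4 were higher and 8 lower. Of 32 dissociation response genes 10 were higher and 5 lower over 6 libraries. Over 7 libraries, where the shares of all genes were 9.06% and 10.6%, 2 of them were higher and 6 lower. Their summed level was 24658 to 42650 CPM in the class and 22903 to 44677 CPM in the other fibroblasts over the 7 libraries, ranges that overlap.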
